A study of Danio rerio with 8 samples.

Results

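The interleukin, tumor necrosis factor (TNF) and interferon gamma ligands and receptors were followed in adult zebrafish brains that lack prosaposin, the precursor of the lysosomal saposins. The genes were taken by a rule on their names, which was set with earlier results of these data known. They are the genes whose symbol starts with *il* and a digit, *tnfsf*, *tnfrsf*, *crfb* and a digit or *ifng*, together with *tnfa* and *tnfb*, and *il34* was left out. This gave 63 of the 22871 genes in the deposited count table, 21 of them ligands and 42 receptors. The *psap* KO fish are homozygous for a CRISPR-Cas9 mutation of *psap* in the TuAB strain, which the study's methods name *psap*+63/+63. They were compared with WT siblings from group matings of heterozygous parents. Both groups were untreated, included males and females, and were sampled at 4 months post-fertilization (mpf), when the KO fish are near the end of their disease. Each genotype has 4 RNA sequencing libraries, each made from 3 pooled brains, so a library is a replicate and no value belongs to a single fish.

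Cytokines are secreted or membrane-held proteins through which immune cells address each other and the surrounding tissue. Interleukin 1 is released after cleavage by inflammasome caspases, and in the brain it comes largely from microglia, as does TNF. Class I interleukin receptors pair a private chain with a shared one, such as the common gamma chain or gp130, and signal through Janus kinases, whereas TNF receptors recruit TRAF and death-domain adaptors. Some genes named after interleukin receptors serve other ends, and the IL1RAPL proteins are neuronal adhesion molecules at synapses.

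Each library held 17562422 to 25127578 counts in *psap* KO and 15332163 to 23480758 counts in WT brains. The 63 genes together took 0.101 to 0.105% of the counts in *psap* KO libraries and 0.0645 to 0.0667% in WT libraries. *psap* itself was at 381 to 450 CPM (counts scaled to a common library size with edgeR's factors) in *psap* KO and 342 to 416 CPM in WT libraries, so its transcript level does not check the genotype labels. Brain markers were abundant in every library (*elavl3*, a neuronal RNA-binding protein, at 320 to 439 CPM in *psap* KO and 408 to 487 CPM in WT). In whole brains, fewer cells of a type and less RNA per cell cannot be told apart. CPM values are not corrected for transcript length and are compared here only between libraries, not between genes.

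Of the 63 genes, 52 had enough counts to be tested (14 ligands and 38 receptors), and most of those that differed were higher in *psap* KO brains. By edgeR's quasi-likelihood test, with Benjamini-Hochberg adjusted p under 0.05 over all 21140 genes tested, 31 were higher in *psap* KO, 4 were lower and 17 did not pass. Over all genes tested, 22.3% were higher and 18.5% were lower, against 59.6% and 7.69% of the 52. Expressed as log2 of *psap* KO over WT, the median change was 1.07 for the 52 genes and 0.02 for all genes. All 4 *psap* KO libraries lay above all 4 WT libraries for 32 of the 52 genes and below them for 3, where 21.9% and 18.3% of all genes did so. Of the 52 genes, 8 entered the test only because *psap* KO libraries passed the count filter (*il12bb*, *il1fma*, *tnfb*, *tnfsf11*, *il17ra1a*, *il7r*, *tnfrsf18* and *tnfrsf9b*), which favors a difference. Among the other 44, which passed in both genotypes, 25 rose and 4 fell, 15 did not pass, with a median log2 fold change of 0.71.

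**Figure D1:**
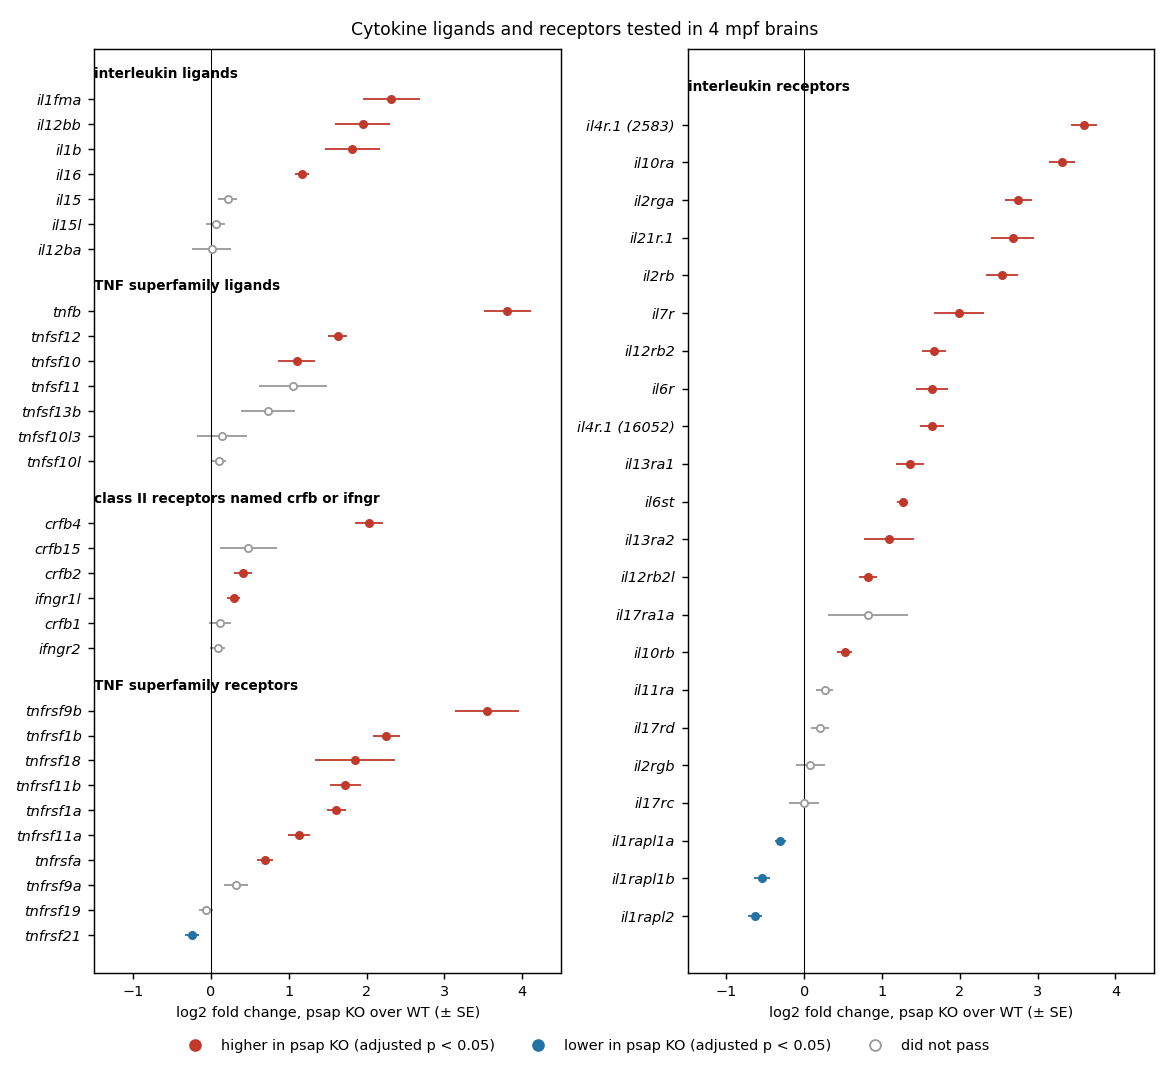
Changes in expression on a log2 scale, *psap* KO over WT (x axis, point, with its standard error as a bar) for the 52 cytokine ligands and receptors tested, grouped by family, with 4 libraries per genotype. Filled red points mark the 31 genes higher in *psap* KO, filled blue points the 4 lower, open points the 17 that did not pass. The pair of genes with the symbol *il4r.1* is told apart by the last digits of their identifiers.

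Among the ligands, 7 were higher in *psap* KO brains, none were lower and 7 did not pass (edgeR, no ligand lower at an unadjusted p under 0.05 either, and 0 lower with DESeq2 or limma-voom). That is 50% higher, where 22.3% of all genes tested were. Of the 7, *tnfb*, *il1fma* and *il12bb* entered the test only through *psap* KO libraries, which favors a difference. Of the 10 ligands that passed the filter in both genotypes, 4 were higher and 6 did not pass, with a median log2 fold change of 0.47. The largest difference of a tested ligand was that of *tnfb*, one of the zebrafish copies of the TNF gene (chromosome 15, 34699585 to 34702661 as the annotation sheet gives it without naming a build). *tnfb* was at 5.62, 5.46, 4.42 and 6.32 CPM in *psap* KO and 0.648, 0.135, 0.396 and 0.326 CPM in WT libraries. The genotypes did not overlap, and the fold change was 14.01 (log2 3.81, standard error 0.302, edgeR adjusted p = 1.35e-06). The WT values rest on few counts, so the size of this fold is less certain than its direction.

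Other TNF superfamily ligands also rose. *tnfsf12*, which encodes TWEAK, a ligand that acts on tissue growth and repair, had 19.4, 19.7, 18.8 and 20.4 CPM in *psap* KO and 5.67, 7.63, 6.91 and 5.26 CPM in WT libraries. The replicates were tight in both genotypes, and the fold change was 3.09 (log2 1.63, standard error 0.121, edgeR adjusted p = 7.7e-07). *tnfsf10*, which encodes the death ligand TRAIL, was at 3.40, 4.93, 5.88 and 6.09 CPM in *psap* KO and 2.92, 2.36, 1.54 and 2.70 CPM in WT libraries. Its genotypes came close without overlapping, and the fold change was 2.15 (log2 1.101, standard error 0.239, edgeR adjusted p = 0.00285).

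The remaining TNF superfamily ligands that were tested did not pass. *tnfsf10l*, a TRAIL-like gene with ample counts, had 16.98 to 20.9 CPM in *psap* KO and 17.6 to 19.1 CPM in WT libraries (log2 fold change 0.10, standard error 0.0888, edgeR adjusted p = 0.4). *tnfsf11*, which encodes RANKL, the osteoclast differentiation factor, had 0.728 to 1.67 CPM in *psap* KO and 0.264 to 0.81 CPM in WT libraries (log2 1.054, standard error 0.433, edgeR adjusted p = 0.0705). *tnfsf13b*, which encodes the B cell survival factor BAFF, had 1.23 to 3.95 CPM in *psap* KO and 1.01 to 1.78 CPM in WT libraries (log2 0.73, standard error 0.349, edgeR adjusted p = 0.116). The libraries of the genotypes overlapped for all of these, and the low levels of *tnfsf11* and *tnfsf13b* leave wide errors. *tnfsf10l3* had a log2 fold change of 0.14 and did not pass.

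Interleukin 1 family ligands rose. *il1b*, the central pro-inflammatory cytokine of this family, was at 4.57, 1.85, 3.26 and 3.68 CPM in *psap* KO and 0.648, 0.54, 1.496 and 0.977 CPM in WT libraries. The lowest *psap* KO library lay just above the highest WT library, and the fold change was 3.53 (log2 1.82, standard error 0.349, edgeR adjusted p = 0.00126). *il1fma*, a fish member of the interleukin 1 family, was at 3.12, 1.89, 2.28 and 3.49 CPM in *psap* KO and 0.918, 0.54, 0.484 and 0.233 CPM in WT libraries. Its genotypes were well apart, with a fold change of 4.99 (log2 2.32, standard error 0.366, edgeR adjusted p = 0.000302).

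Of the interleukin 12 subunits, *il12bb*, one of the zebrafish genes for the p40 subunit, rose, with 1.89, 1.14, 1.215 and 2.03 CPM in *psap* KO and 0.378, 0.54, 0.484 and 0.233 CPM in WT libraries. This was a fold change of 3.86 (log2 1.95, standard error 0.351, edgeR adjusted p = 0.000805). Its paralog *il12ba* had 1.56, 1.54, 1.17 and 1.46 CPM in *psap* KO and 1.62, 1.755, 1.14 and 1.21 CPM in WT libraries. These values overlapped throughout (log2 fold change 0.01, standard error 0.249, edgeR adjusted p = 0.976).

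*il16*, which encodes a chemoattractant for CD4-bearing cells, was measured with the smallest relative error among the interleukin ligands that rose. It had 38.3, 38.2, 35.7 and 37.1 CPM in *psap* KO and 17.2, 18.2, 16.6 and 14.4 CPM in WT libraries (fold change 2.25, log2 1.17, standard error 0.085, edgeR adjusted p = 6.5e-07). The *il16* locus overlaps *stard5* and a clone-named gene on the opposite strand, which had mean levels of 5.69 and 6.25 CPM and log2 fold changes of -0.08 and -0.36, and whether the counting used strand is not stated in the sources used here. *il15*, which sustains lymphocytes that carry the common gamma chain, had 8.27 to 10.6 CPM in *psap* KO and 7.26 to 8.37 CPM in WT libraries, and its relative *il15l* 7.85 to 9.42 CPM in *psap* KO and 7.13 to 9.11 CPM in WT libraries. Neither passed the test, with log2 fold changes of 0.21 (standard error 0.121, edgeR adjusted p = 0.185) and 0.06 (standard error 0.121, edgeR adjusted p = 0.732).

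**Figure D2:**
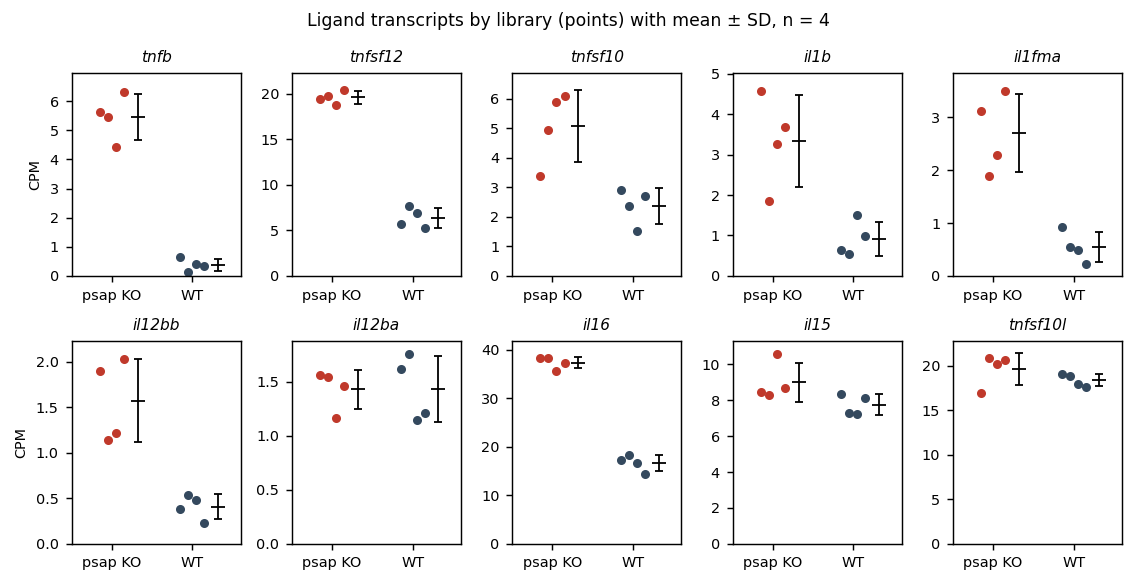
Levels in CPM (y axis, from 0) of 10 ligand transcripts in each of the 4 *psap* KO (red) and 4 WT (dark) libraries, with the mean and SD as a cross bar and whiskers. The *psap* KO points of *tnfb*, *tnfsf12*, *tnfsf10*, *il1b*, *il1fma*, *il12bb* and *il16* lie above all WT points, and those of *il12ba*, *il15* and *tnfsf10l* overlap with them.

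A further 7 ligands had too few counts for the test and are given as raw counts. *tnfa*, the other zebrafish TNF gene, had 3, 1, 1 and 28 counts in *psap* KO and 0, 0, 2 and 0 counts in WT libraries. Nearly all of the *psap* KO counts came from replicate 4. The ratio of *psap* KO over WT, scaled by library size, was 15.5 with all libraries (exact 95% interval 3.96 to 133) and 3.33 without that replicate (0.546 to 35.0), so a difference in *tnfa* was not detectable at this depth once it was left out. These intervals cover counting error only, not the spread between libraries. *ifng1*, the interferon gamma gene, had 2, 2, 7 and 18 counts in *psap* KO and 0, 0, 0 and 1 counts in WT libraries. Every *psap* KO library was above every WT library, with a ratio of 27.2 (4.52 to 1110) that became 14.7 (2.13 to 632) without *psap* KO replicate 4.

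The TNF superfamily ligands *tnfsf10l4* and *tnfsf14*, the gene for the T cell costimulator LIGHT, showed the same separation of libraries. *tnfsf10l4* had 6, 5, 19 and 22 counts in *psap* KO and 0, 1, 1 and 1 counts in WT libraries, a ratio of 16.3 (5.27 to 81.5). *tnfsf14* had 14, 9, 19 and 38 counts in *psap* KO and 2, 0, 3 and 3 counts in WT libraries. When the count filter was dropped, *ifng1*, *tnfsf10l4* and *tnfsf14* passed in edgeR (adjusted p = 0.0125, 0.00235 and 0.00168) and *tnfa* did not (adjusted p = 0.0565). The interleukin ligands *il12a*, *il21* and *il22* had 23, 26 and 22 counts in *psap* KO and 11, 7 and 30 counts in WT brains, their libraries overlapped, and none passed without the filter.

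**Figure D3:**
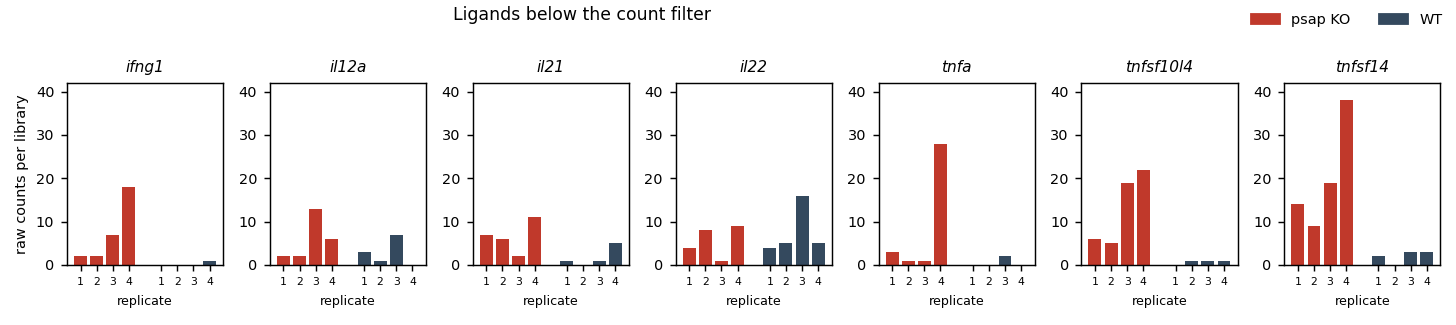
Raw counts per library (y axis, bars from 0) of the 7 ligands below the count filter, for replicates 1 to 4 of *psap* KO (red, left) and WT (dark, right). The *tnfa* bar of *psap* KO replicate 4 reaches 28 where no other library exceeds 3, whereas *ifng1*, *tnfsf10l4* and *tnfsf14* are above WT in every *psap* KO library.

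Most receptors differed between genotypes, with 24 higher in *psap* KO, 4 lower and 10 not passing of the 38 tested. Their shares of 63.2% higher and 10.5% lower stand beside 22.3% and 18.5% over all genes tested. The receptors *il17ra1a*, *il7r*, *tnfrsf18* and *tnfrsf9b* reached the test through *psap* KO libraries alone, which favors a difference. The 34 receptors past the count filter in both genotypes had a median log2 fold change of 0.76. Of these 34, 21 rose, 4 fell and 9 missed the threshold. Among interleukin receptors, 14 of 22 rose (63.6%) and 3 fell (13.6%). The interleukin receptor with the largest fold change is annotated as *il4r.1*, an interleukin 4 receptor chain (ENSDARG00000102583, chromosome 3, 44048907 to 44060037). It had 21.3, 16.3, 22.6 and 21.8 CPM in *psap* KO and 1.89, 1.21, 2.07 and 1.49 CPM in WT libraries, a fold change of 12.1 (log2 3.60, standard error 0.17, edgeR adjusted p = 2.83e-08). Another gene with the same symbol lies 36103 bp away on the same strand (ENSDARG00000116052, chromosome 3, 44002300 to 44012804) and had 10.3, 7.96, 9.19 and 8.39 CPM in *psap* KO and 2.70, 3.58, 2.51 and 2.74 CPM in WT libraries. It rose less, by 3.12-fold (log2 1.64, standard error 0.155, edgeR adjusted p = 5.49e-06). If the pair are near-identical copies, how the counting split reads between them is unknown, so the division of the rise between the pair is uncertain.

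Chains that bind interleukin 13 rose as well. *il13ra1*, which joins IL4R in the receptor for interleukin 13, had 8.80, 7.70, 9.92 and 6.28 CPM in *psap* KO and 3.56, 2.63, 3.56 and 2.88 CPM in WT libraries (log2 fold change 1.36, standard error 0.176, edgeR adjusted p = 6.74e-05). *il13ra2*, which encodes a decoy receptor for interleukin 13 in mammals, had 1.61, 1.72, 2.14 and 3.41 CPM in *psap* KO and 1.30, 1.01, 1.23 and 0.651 CPM in WT libraries. Its libraries did not overlap (log2 1.09, standard error 0.317, edgeR adjusted p = 0.0152), but the call rested on *psap* KO replicate 4, without which the log2 fold change was 0.80 (edgeR adjusted p = 0.0544).

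Chains of the interleukin 2 receptor family, best known from lymphocytes, rose, except for *il2rgb*. *il2rga*, one of the zebrafish common gamma chains, had 10.5, 10.6, 11.1 and 15.2 CPM in *psap* KO and 2.11, 1.48, 1.76 and 1.67 CPM in WT libraries, a fold change of 6.72 (log2 2.75, standard error 0.174, edgeR adjusted p = 2.29e-07). Its paralog *il2rgb* had 3.12, 2.51, 3.45 and 2.49 CPM in *psap* KO and 2.59, 2.36, 3.17 and 2.74 CPM in WT libraries, which overlapped (log2 0.08, standard error 0.192, edgeR adjusted p = 0.772). The paralogs thus differed in how they were called, and their direct comparison is given with the other pairs.

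*il2rb*, the beta chain shared by the receptors for interleukins 2 and 15, had 7.18, 6.47, 8.94 and 10.8 CPM in *psap* KO and 1.08, 1.69, 1.54 and 1.44 CPM in WT libraries (fold change 5.82, log2 2.54, standard error 0.211, edgeR adjusted p = 1.92e-06). *il21r.1*, an interleukin 21 receptor gene, had 9.02 to 20.2 CPM in *psap* KO and 1.63 to 2.43 CPM in WT libraries, with the widest relative spread of these chains among *psap* KO libraries (log2 2.68). *il7r*, the interleukin 7 receptor, which lymphoid progenitors need, had 1.67 to 3.29 CPM in *psap* KO and 0.337 to 0.744 CPM in WT libraries (log2 1.99). Both passed the test, and neither had overlapping genotypes.

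*il10ra*, which encodes the ligand-binding chain for the anti-inflammatory interleukin 10, rose 9.95-fold (chromosome 15, 12377887 to 12388434). It had 13.98, 11.7, 11.3 and 14.4 CPM in *psap* KO and 0.918, 1.42, 1.496 and 1.30 CPM in WT libraries (log2 3.31, standard error 0.17, edgeR adjusted p = 5.11e-08). The second chain, *il10rb*, had 23.2, 20.8, 23.7 and 20.6 CPM in *psap* KO and 16.7, 15.7, 16.3 and 12.9 CPM in WT libraries. It also rose, but by 1.43-fold (log2 0.52, standard error 0.101, edgeR adjusted p = 0.00135).

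*il6st* encodes gp130, the signal transducer shared by interleukin 6, interleukin 11, LIF and CNTF receptors, and its rise was among the most precisely measured. *il6st* had 239, 222, 224 and 200 CPM in *psap* KO and 95.6, 87.7, 92.8 and 92.5 CPM in WT libraries (fold change 2.40, log2 1.26, standard error 0.0681, edgeR adjusted p = 6.74e-08). *il6r*, the ligand-binding chain for interleukin 6, had 7.91, 5.63, 9.33 and 9.11 CPM in *psap* KO and 1.78, 2.56, 3.04 and 2.79 CPM in WT libraries (log2 1.64, standard error 0.207, edgeR adjusted p = 5.43e-05). Both chains were separated between genotypes. *il11ra*, the corresponding chain for interleukin 11, had 10.7 to 11.1 CPM in *psap* KO and 7.76 to 10.2 CPM in WT libraries. Its libraries did not overlap, but it did not pass the test (log2 0.27, standard error 0.108, edgeR adjusted p = 0.0687). No interleukin 6 or interleukin 11 ligand gene was among the 63.

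*il12rb2*, the signaling chain of the interleukin 12 receptor, had 9.86, 9.72, 10.7 and 13.4 CPM in *psap* KO and 4.05, 3.58, 2.95 and 3.30 CPM in WT libraries (fold change 3.17, log2 1.66, standard error 0.153, edgeR adjusted p = 4.58e-06). *il12rb2l* was also higher, with 11.7 to 15.1 CPM in *psap* KO and 7.02 to 8.53 CPM in WT libraries (log2 0.82). *il23r*, which lies 13422 bp from *il12rb2* on chromosome 6, stayed below the count filter, with 37 counts in *psap* KO and 38 counts in WT brains. A rise in *il12rb2* was therefore not accompanied by a detectable difference in its neighbor.

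None of the tested interleukin 17 receptor genes passed. *il17rd*, which in zebrafish is known as a brake on fibroblast growth factor signaling, had 7.12 to 7.80 CPM in *psap* KO and 5.999 to 7.13 CPM in WT libraries (log2 fold change 0.20, standard error 0.118, edgeR adjusted p = 0.191). *il17rc* had 2.18 to 2.64 CPM in *psap* KO and 1.95 to 2.595 CPM in WT libraries (log2 -0.01, standard error 0.192, edgeR adjusted p = 0.983), and *il17ra1a* had a log2 fold change of 0.82 with overlapping libraries. *il17rel* and *il20ra* were below the filter, with 30 and 19 counts in *psap* KO and 15 and 11 counts in WT brains.

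The 3 interleukin receptor genes that fell are all of the IL1RAPL group, named for likeness to the interleukin 1 receptor accessory protein. *il1rapl1a*, whose human counterpart is linked to intellectual disability, had 107, 107, 109 and 91.1 CPM in *psap* KO and 131, 136, 123 and 123 CPM in WT libraries (fold change 0.807, log2 -0.31, standard error 0.0721, edgeR adjusted p = 0.0044). *il1rapl1b* had 12.5, 14.1, 13.8 and 13.4 CPM in *psap* KO and 20.9, 22.0, 18.0 and 17.7 CPM in WT libraries (log2 -0.54, standard error 0.0972, edgeR adjusted p = 0.000778). *il1rapl2* had 28.1 to 37.8 CPM in *psap* KO and 49.9 to 55.0 CPM in WT libraries (log2 -0.64, standard error 0.0899, edgeR adjusted p = 0.000128). All *psap* KO libraries lay below all WT libraries for each of the 3 genes. *il1rapl1b* lies entirely within *gnb4b*, which is on the opposite strand at a mean of 59.6 CPM with a log2 fold change of 0.27, so its reads may be mixed with those of *gnb4b* if the counting ignored strand. Over the list of 13 neuronal markers, 10 fell and 2 rose, where 18.5% of all genes tested were lower and 22.3% were higher. The summed levels of these markers were 4603 to 4792 CPM in *psap* KO and 6216 to 6432 CPM in WT libraries. The part of this fall in the lower IL1RAPL levels was not tested.

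The class II cytokine receptors, which include those for interferons and for interleukin 10, also hold 7 genes named *crfb* or *ifngr*. Of the 6 tested under these names, 3 rose and 3 did not pass, with a median log2 fold change of 0.35. Over all genes tested, 22.3% were higher, 18.5% were lower and the median log2 fold change was 0.02. *crfb4*, with 7.07, 9.15, 7.92 and 8.502 CPM in *psap* KO and 2.27, 1.48, 2.46 and 1.72 CPM in WT libraries, rose 4.07-fold (log2 2.03, standard error 0.18, edgeR adjusted p = 3.4e-06). *crfb2*, a subunit of a zebrafish type I interferon receptor, had 9.91, 11.0, 9.87 and 9.77 CPM in *psap* KO and 6.59, 7.29, 8.27 and 8.23 CPM in WT libraries (log2 0.41, standard error 0.115, edgeR adjusted p = 0.0121). *ifngr1l*, an interferon gamma receptor chain, had 26.7, 27.0, 25.0 and 23.4 CPM in *psap* KO and 22.9, 20.04, 20.9 and 19.4 CPM in WT libraries (log2 0.29, standard error 0.0846, edgeR adjusted p = 0.0142). These 3 had no overlap between genotypes, although the margins of *crfb2* and *ifngr1l* were narrow.

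The other tested genes named *crfb* or *ifngr* did not pass. *ifngr2*, the second chain of the interferon gamma receptor, had 56.5 to 72.6 CPM in *psap* KO and 55.0 to 71.4 CPM in WT libraries (log2 fold change 0.09, standard error 0.098, edgeR adjusted p = 0.521). *crfb1*, another type I interferon receptor subunit, which lies 2701 bp from *crfb2*, had 15.7, 15.4, 16.2 and 10.1 CPM in *psap* KO and 13.6, 12.1, 14.3 and 12.9 CPM in WT libraries (log2 0.12, standard error 0.141, edgeR adjusted p = 0.546). The low *psap* KO value is that of replicate 4. *crfb15* had a log2 fold change of 0.48 with overlapping libraries (standard error 0.366, edgeR adjusted p = 0.324), and *ifngr1* had 22 counts in *psap* KO and 5 counts in WT brains, too few for the test.

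Both classical TNF receptors rose. *tnfrsf1a*, whose mammalian counterpart carries a death domain and is expressed widely, had 34.5, 33.8, 35.4 and 43.3 CPM in *psap* KO and 11.99, 9.72, 11.96 and 14.3 CPM in WT libraries (fold change 3.05, log2 1.61, standard error 0.121, edgeR adjusted p = 8.54e-07). *tnfrsf1b*, whose mammalian counterpart is found mainly on immune cells, had 33.4, 27.2, 29.5 and 43.2 CPM in *psap* KO and 7.24, 4.99, 8.49 and 6.93 CPM in WT libraries (fold change 4.78, log2 2.26, standard error 0.177, edgeR adjusted p = 2.7e-06). The genotypes were far apart for both, and *psap* KO replicate 4 was the highest library for both.

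*tnfrsf9b*, a relative of the T cell costimulator 4-1BB, had the largest fold change of the TNF receptors. It entered the test only through *psap* KO libraries, which favors a difference. Its WT libraries held 3, 1, 2 and 4 counts, so the size of this fold is less certain than its direction. It was at 1.225, 1.14, 1.750 and 2.11 CPM in *psap* KO and 0.162, 0.0675, 0.088 and 0.186 CPM in WT libraries (fold change 11.7, log2 3.55, standard error 0.412, edgeR adjusted p = 2.95e-05), a low level in both genotypes. Its paralog *tnfrsf9a* had 26.1, 23.3, 29.6 and 39.8 CPM in *psap* KO and 25.9, 19.98, 24.7 and 24.5 CPM in WT libraries. These overlapped, and *tnfrsf9a* did not pass (log2 0.32, standard error 0.154, edgeR adjusted p = 0.122). *tnfrsf18*, which encodes GITR, another receptor of activated T cells, was higher with 0.88 to 2.26 CPM in *psap* KO and 0.162 to 0.877 CPM in WT libraries. Its log2 fold change was 1.85 with all libraries and 2.48 without WT replicate 2. *tnfrsf18* also entered the test only through *psap* KO libraries.

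Receptors of the RANKL system rose. The ligand gene *tnfsf11* did not pass, with a log2 fold change of 1.054 near that of *tnfrsf11a* but a wide standard error (0.433). *tnfrsf11a*, which encodes RANK, had 24.4, 16.1, 20.4 and 16.4 CPM in *psap* KO and 7.78, 9.18, 9.33 and 8.93 CPM in WT libraries (log2 fold change 1.13, standard error 0.139, edgeR adjusted p = 4.68e-05). *tnfrsf11b*, which encodes the soluble decoy osteoprotegerin, had 12.8, 8.18, 13.4 and 10.1 CPM in *psap* KO and 2.75, 2.97, 2.99 and 4.60 CPM in WT libraries (fold change 3.31, log2 1.73, standard error 0.203, edgeR adjusted p = 3.16e-05). Neither had overlapping genotypes.

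Of the remaining TNF receptors, *tnfrsfa* rose, with 17.5, 15.6, 17.5 and 16.5 CPM in *psap* KO and 10.3, 11.8, 8.71 and 10.8 CPM in WT libraries (log2 fold change 0.69, standard error 0.107, edgeR adjusted p = 0.000258). *tnfrsf21*, which encodes death receptor 6, a regulator of neurons and oligodendrocytes in mice, had 55.3, 49.5, 49.0 and 42.9 CPM in *psap* KO and 52.4, 62.5, 61.4 and 56.1 CPM in WT libraries. It was called lower at the margin (log2 -0.24, standard error 0.0884, edgeR adjusted p = 0.0455), its libraries overlapped, and the call was lost with upper-quartile scaling (adjusted p = 0.0747), with a stricter count filter (0.0671) and in 6 of the 8 fits that left out 1 library (0.0544 to 0.119), namely *psap* KO replicates 2, 3 and 4 and WT replicates 2, 3 and 4. *tnfrsf19*, which encodes TROY, had 14.5 to 17.004 CPM in *psap* KO and 15.7 to 17.1 CPM in WT libraries and did not pass (log2 -0.06).

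**Figure D4:**
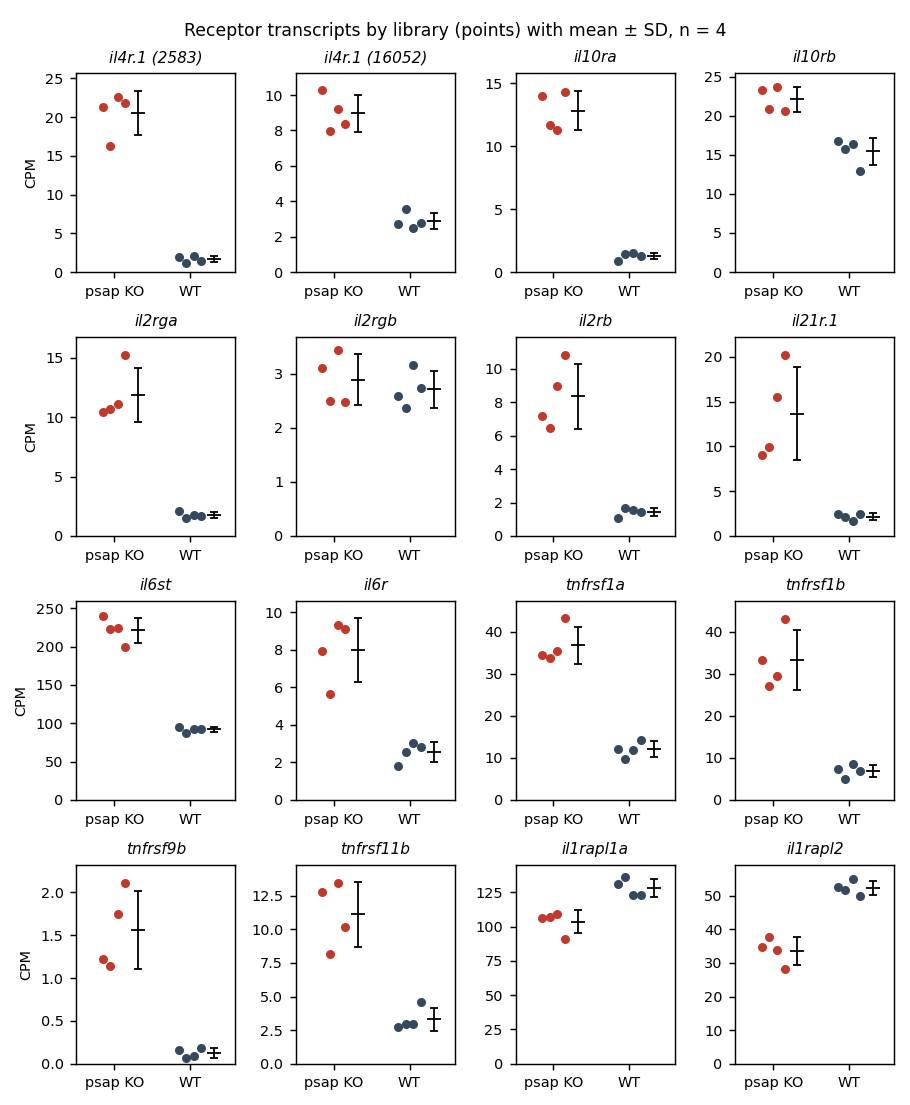
Levels in CPM (y axis, from 0) of 16 receptor transcripts in each of the 4 *psap* KO (red) and 4 WT (dark) libraries, with the mean and SD as a cross bar and whiskers. The *psap* KO points lie above all WT points in every panel except *il2rgb*, where the genotypes overlap, and *il1rapl1a* and *il1rapl2*, where they lie below. The *il4r.1* panels carry the last digits of the identifiers.

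Paralogs and receptor partners were set against each other within each library, as the log2 ratio of their CPM, and the ratios were compared between genotypes for the 10 listed pairs in which both genes were tested. In 5 pairs the ratios of the 4 *psap* KO libraries did not overlap with those of the 4 WT libraries. How often ratios of other gene pairs separate in this way was not measured. Of all single genes tested, 21.9% had all *psap* KO libraries above all WT libraries and 18.3% had them below, so the count of 5 is not read as particular to these pairs. For *il10ra* over *il10rb* the log2 ratio was -0.78 ± 0.22 in *psap* KO and -3.50 ± 0.37 in WT (SD, n = 4 each), a difference of 2.72. For *il2rga* over *il2rgb* it was 2.00 ± 0.42 in *psap* KO and -0.60 ± 0.22 in WT (SD, n = 4 each), a difference of 2.601. CPM are not corrected for transcript length, so only the shift of a ratio between genotypes is read here, not its sign. The difference of *psap* KO minus WT was -1.71 for *il12ba* over *il12bb*, -0.93 for *tnfrsf21* over *tnfrsfa* and -0.64 for *tnfrsf1a* over *tnfrsf1b*, where the second gene of each pair gained on the first. The pair of *il12ba* and *il12bb* was compared only because *il12bb* passed the count filter through *psap* KO libraries, which favors its shift.

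Each of these 5 differences had the smallest p that an exact two-sided permutation test of 4 libraries against 4 can give (p = 0.0286), and 0.0571 after Benjamini-Hochberg adjustment over the 10 pairs, so none passed 0.05. The other 5 pairs differed by less, with -0.31 for *crfb1* over *crfb2*, 0.21 for *il17rd* over *il17rc*, 0.23 for *il1rapl1a* over *il1rapl1b*, 0.34 for *il13ra1* over *il13ra2* and 0.35 for *il6r* over *il6st* (exact permutation p = 0.114, 0.0857, 0.0857, 0.4 and 0.229).

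**Figure D5:**
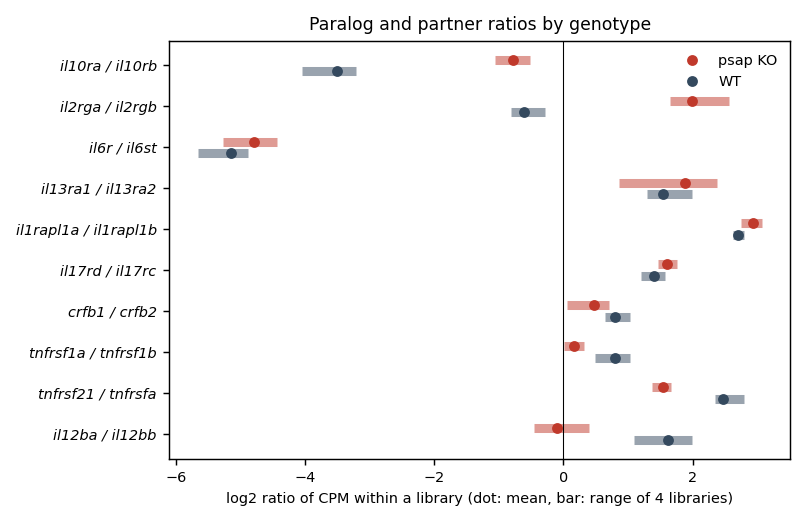
The log2 ratio of the CPM of paired genes within a library (x axis) for 10 pairs, with a dot for the mean and a bar for the range of the 4 *psap* KO (red, upper) and 4 WT (dark, lower) libraries. The largest shifts are those of *il10ra* over *il10rb* (2.72) and *il2rga* over *il2rgb* (2.601).

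Genes that act next to these ligands and receptors were counted from 4 lists. Over all genes tested, 22.3% were higher and 18.5% were lower. Of 15 tested genes that process interleukin 1 or carry its signal, 12 rose and none fell, with a median log2 fold change of 0.93 (0.02 over all genes; edgeR, 0 lower also at an unadjusted p under 0.05, with DESeq2 and with limma-voom). Of these, *caspa*, *pycard* and *gsdmea* entered the test only through *psap* KO libraries, which favors a difference. *caspa*, a zebrafish inflammasome caspase, had 3.87 to 5.51 CPM in *psap* KO and 0.27 to 0.88 CPM in WT libraries (log2 2.91). *irak3*, a kinase-like brake on this pathway, had 5.94 to 8.96 CPM in *psap* KO and 1.15 to 1.58 CPM in WT libraries (log2 2.38), and the ubiquitin ligase gene *traf6* had 11.0 to 14.4 CPM in *psap* KO and 5.67 to 7.29 CPM in WT libraries (log2 0.99). Genes that promote and genes that restrain the pathway were thus both among those that rose.

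Of 27 tested TNF receptor adaptors and processing genes, 13 rose and none fell, with a median log2 fold change of 0.38. By edgeR, 0 were lower also at an unadjusted p under 0.05, and 0 were lower with DESeq2 or limma-voom. These counts and those of the next lists stand beside 22.3% higher and 18.5% lower over all genes tested. *cflara*, a cFLIP gene that restrains caspase-8, had 29.3 to 30.5 CPM in *psap* KO and 10.2 to 10.9 CPM in WT libraries (log2 1.52). *rbck1*, which encodes the HOIL-1 part of the linear ubiquitin ligase, had a log2 fold change of 1.83, and *traf3*, an adaptor of several TNF receptors, had 1.105. Of 11 Janus kinases and receptor-proximal phosphatases, 5 rose (*ptprc*, *ptpn6*, *jak1*, *jak3* and *tyk2*, the last 2 named after their values were seen) and *ptpn11b* fell, with a median of 0.17. *ptprc* is also counted in the microglia and macrophage list below. *jak1*, the kinase of gp130 and common gamma chain receptors, had 190 to 218 CPM in *psap* KO and 102 to 113 CPM in WT libraries (log2 0.92). Only 2 of the 5 listed interleukin 17 adaptors were measured. Both of them, *traf6* (also counted in the interleukin 1 list) and *traf3ip2l*, rose.

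Most tested markers of immune cells were also higher in *psap* KO brains. The counts below stand beside 22.3% higher and 18.5% lower over all genes tested. Some listed markers, among them *mpeg1.2*, *c1qa*, *itk*, *lect2l* and *mmp13a*, entered the test only through *psap* KO libraries, which favors a difference. Of 28 tested microglia and macrophage markers 27 rose, and the summed level of the 29 measured was 1895 to 2551 CPM in *psap* KO and 461 to 530 CPM in WT libraries, a log2 ratio of 2.11. None of the defining markers was at 0 (*mpeg1.1* at 48.9 to 74.8 CPM in *psap* KO and 10.6 to 12.4 CPM in WT). Of 12 tested genes on the lymphocyte list 8 rose and 2 fell, with a median log2 fold change of 1.27. The summed level of the list was 88.2 to 103 CPM in *psap* KO and 95.9 to 103 CPM in WT libraries. It was mostly that of *tox* (mean 46.5 CPM in *psap* KO and 57.9 CPM in WT) and *gata3* (17.6 CPM in *psap* KO and 27.5 CPM in WT), the genes that fell. Which cells of the whole brain these 2 genes came from was not tested, so the sum may not report lymphocytes. Among the genes that rose, *cd4-1* had 1.23 to 2.22 CPM in *psap* KO and 0.0675 to 0.378 CPM in WT libraries. *cd4-1* entered the test only through *psap* KO libraries. *rag2* (log2 -0.33) and *pax5* (log2 -0.18) did not pass, and *cd79a*, *cd79b*, *cd247* and *tbx21* were below the count filter. Of 10 genes on the neutrophil list 7 rose. Those that did not pass were *mpx*, the neutrophil peroxidase (log2 0.30), *npsn* (log2 0.36) and *cpa5* (log2 -1.19). Whether the listed genes mark neutrophils alone was not tested, so the count of 7 is not read as a rise of neutrophils. Of 12 endothelial markers 6 rose. Of 7 tested astroglial markers 5 rose, and of 10 oligodendrocyte markers 6 rose and *mbpa*, the myelin basic protein gene, fell. Skeletal muscle markers summed to 24.7 to 48.9 CPM in *psap* KO and 72.3 to 755 CPM in WT libraries, the highest value being that of WT replicate 1. Of 11 tested muscle markers, only *ttn.1* was called, as lower in *psap* KO, and 10 did not pass. The part of any of these cell types in the rise of the ligands and receptors was not tested.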

How the data were processed

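Total RNA (ribosomal RNA depleted, stranded kit, paired reads) was sequenced from 4 libraries of 3 pooled brains per genotype. The authors removed optical duplicates, trimmed with cutadapt 1.16, aligned with STAR 2.6.1b and deposited raw counts per gene from featureCounts 1.6.3. Their methods name the Zv10 genome with Ensembl release-94 features, and the strand setting of the counting is not given in the sources used here. The deposited comparison of the authors (DESeq2 1.22.2) and normalized values were not used.

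In R 4.3.3, edgeR 4.0.16 was run on the counts (TMM scaling, filterByExpr by genotype, robust quasi-likelihood fit, genotype only), with Benjamini-Hochberg adjustment over 21140 genes at 0.05. No library repeated another within counting noise (chi-square per degree of freedom 5.27 to 30.1 between replicates). Pair ratios used log2 CPM with a prior count of 2, tested by exact two-sided permutation of libraries. Alternatives were RLE and upper-quartile scaling, no filter, a filter at a mean count of 50, limma-voom (limma 3.58.1), DESeq2 1.42.0, a replicate block, and each library left out.

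The ligands and receptors, the marker and pathway lists and the tests were chosen with earlier results of these data known. Values per library were given for *tnfa*, *tnfb* and *il1b*, for the 6 tested genes with the smallest p and the 2 with the highest mean in each family, and for both genes of listed pairs. Some of these genes that did not pass are given by their range only. Other family members are given by name, count or range, and for list genes the 3 with the smallest p. Library values of genes below the filter, and values of *jak3*, *tyk2*, *ptpn11b*, *traf3ip2l* and single markers, were added after they were seen.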

Additional observations from a re-analysis of the deposited data

Results flagged for a closer look

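In 126 groups of 4 libraries, 1 group per gene and genotype, 11 held a library far from the other 3 by Dixon's test at the 95% level. For normally distributed values chance gives about 1 in 20, but groups with few counts are not of that kind. Dixon's ratio is fixed at 1 where only 1 library holds counts, as for *ifng1* and *tnfa* in WT. The 11 are therefore not set against that rate. *psap* KO replicate 4 stood apart in 5 genes. It was high in *tnfa* (1.072 CPM, where the other *psap* KO libraries had 0.044 to 0.167), *il2rga* (15.24, others 10.47 to 11.08) and *tnfrsf1a* (43.31, others 33.79 to 35.39), and low in *crfb1* (10.15, others 15.35 to 16.24) and *il1rapl1a* (91.11, others 106.6 to 109.1). *psap* KO replicate 2 was high in *crfb2* (10.96 CPM, others 9.766 to 9.911) and *il23r* (0.7479, others 0.2784 to 0.3447), and *psap* KO replicate 3 in *il17rel* (0.6319, others 0.2227 to 0.2681). Among WT libraries, replicate 4 was high in *tnfrsf11b* (4.604 CPM, others 2.754 to 2.991) and held the only count of *ifng1* (0.0465 CPM, others 0), and replicate 3 held the only counts of *tnfa* (0.08797 CPM, others 0). The values of *tnfa*, *ifng1*, *il17rel* and *il23r* rest on few counts.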

How the results depend on the processing

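Over the 15 alternatives, 607 values of the 43 genes chosen for library values kept their direction and call, 14 reversed, 5 gained a call and 9 lost it. Among these genes, directions reversed only for those with log2 fold changes near 0 that passed nowhere, namely *il12ba* (-0.0114 with RLE scaling, -0.00753 with DESeq2, -0.0874 to 0.115 with 1 library left out), *il17rc* (0.0261 with upper-quartile scaling, 0.00209 with limma-voom, -0.0980 to 0.0419 with 1 library left out), *il2rgb* (-0.0159 without *psap* KO replicate 3, at most 0.163 with 1 library left out) and *il15l* (-0.00931 without WT replicate 1, at most 0.105 with 1 library left out). With a filter at a mean count of 50, 4 ligands were higher and 1 interleukin 17 adaptor, because fewer genes were tested. *il1b*, *il12bb*, *il1fma* and *tnfrsf9b* were among the genes left untested there, which have no value for that filter in the tally above. DESeq2 called 2 genes of the Janus kinase list lower, as did the fits without *psap* KO replicate 4 and without WT replicate 4 (range 1 to 2), and 1 gene of the interleukin 1 list was lower without *psap* KO replicate 2 (range 0 to 1). The cause was not tested. *il11ra*, not among the 43, passed with upper-quartile scaling (adjusted p = 0.047) and the stricter filter (0.0448), *tnfsf13b* without *psap* KO replicate 2 (0.036), *tnfrsf9a* without *psap* KO replicate 2 (0.0391) and *tnfsf11* without WT replicate 1 (0.0363), all edgeR. Leaving out 1 library gave 7 to 9 higher ligands and 23 to 25 higher and 3 to 4 lower receptors. Upper-quartile scaling gave 5080 higher and 3467 lower genes and DESeq2 4534 and 4358.

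Replicate numbers were not taken as pairs in the main fit, and the sample labels state no pairing. *psap* KO and WT libraries of the same number correlated at 0.0575, 0.0705, 0.133 and 0.167 across genes. Those of different numbers correlated at -0.118 to 0.0735, mostly lower. Whether libraries of the same number share an effect was not tested. With a replicate block, 8 ligands and 25 receptors were higher, 0 and 4 lower, and 4908 and 4429 of all genes were higher and lower, with *tnfsf11* (adjusted p = 0.03) and *tnfrsf9a* (0.0395) added by edgeR.

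Depth limits the 11 untested genes and the low ligands, where a few counts set the WT level.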

Other observations

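The name rule misses genes that the deposited annotation gives only a clone or provisional name but lists with a human interleukin or TNF receptor homolog. There were 5 of these, and 3 were tested. Both tested genes listed with the homolog IL1RL1, the interleukin 33 receptor of mammals, were higher in *psap* KO brains. ENSDARG00000088672 had 14.5, 15.3, 13.5 and 18.0 CPM in *psap* KO and 4.21, 5.26, 4.31 and 4.51 CPM in WT libraries (log2 fold change 1.752, edgeR adjusted p = 6.61e-07). *CABZ01054965.1* lies on the same chromosome (9) and had 8.91, 9.94, 5.74 and 9.15 CPM in *psap* KO and 3.73, 2.77, 3.39 and 3.02 CPM in WT libraries (log2 1.38, edgeR adjusted p = 8.87e-05). Neither had overlapping genotypes, and the homolog is the annotation's entry, which was not checked here. *CABZ01068246.1*, listed with IL1RAP, had 1.72 to 3.04 CPM in *psap* KO and 1.54 to 2.32 CPM in WT libraries and did not pass (log2 0.25, edgeR adjusted p = 0.453). These genes were named after their values were seen.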
